A study of Homo sapiens with 17 samples.

Results

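LNCaP cells were compared for RNA recovered with an antibody against N6-methyladenosine (m6A) and RNA recovered with unspecific immunoglobulin G (IgG). All 110260 regions of the LNCaP table were taken, out of 326944 regions in the 3 tables of the series. The series holds 17 samples from the prostate lines HPr1AR, LNCaP and 22Rv1. LNCaP contributed 6 of them, 3 m6A pull-downs and 3 IgG pull-downs. All 6 were labelled genotype WT and treatment vehicle, from total RNA of cells grown to about the same confluence as biological replicates. LNCaP is a single established line from a prostate cancer metastasis that grows in response to androgen, so it stands for 1 tumour only. The table gives 1 value per region for the whole comparison and none per sample, so no spread between the 6 samples can be given, and which of them entered the comparison is not stated.

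In m6A a methyl group sits on the base of an adenosine inside RNA. A nuclear complex built on METTL3 and METTL14 writes it, FTO and ALKBH5 can remove it, and YTH-domain proteins bind it and change how long the RNA lives and how it is spliced and translated. It is known to gather near stop codons, in the start of 3 prime untranslated regions and in long internal exons, mostly within the motif GGACT and its relatives. Antibodies against m6A also bind the related base m6Am, which forms where a transcript begins with an adenosine next to the cap.

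Because transcript starts were among the places where LNCaP regions were high, the bases around 7 RefSeq starts (build GRCh38.p14) are shown, with the first transcribed base in capitals and 10 bases before it. They are the starts of genes described further on and were picked after their values were seen. The first 3 begin with A, the next 3 with C or G, and MALAT1 is the 1 whose region of promoter and exon was not called.
FRK, chr6:116060872-116060901, minus strand: ggaaattattAcagtctgttcatagctcag
METTL3, chr14:21511321-21511350, minus strand: tccaggggtcAttttccggttagccttcgg
KLK2, chr19:50873429-50873458, plus strand: ccccagccccAaactcaccacctggccgtg
RARG, chr12:53232190-53232219, minus strand: aaatattttcCgtgtccccgcctgcagagt
YTHDF2, chr1:28736614-28736643, plus strand: cagagctagtCtttccaggtgttagtcgaa
IRS1, chr2:226799801-226799830, minus strand: gcctcccggcGgcggctgcccggctgccga
MALAT1, chr11:65497728-65497757, plus strand: ctctcccctcCgcagcctgcagcccgagac

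A region is a run of neighbouring 20 bp windows, and each was tested through its representative window, the one whose number the table lists. The authors' deposited table lists all 110260 regions as up, and 105138 of them (95.4%) have an adjusted p under 0.05. Its log2 folds follow a formula in which the reference pull-down is subtracted 2 times. The whole reads behind each fold were therefore rebuilt and set against rebuilt depths of 3.92 M m6A reads and 8.87 M IgG reads. The 5122 regions that miss the threshold were rebuilt with 0 m6A reads, the only m6A count allowed where the deposited p is large. Which pull-down forms the numerator is not stated in the file, and m6A was assumed from the table's name. Every ratio below is the log2 ratio of m6A to IgG reads at these depths, with a 95% exact interval that covers counting error only. "Higher" and "lower" mean an adjusted p under 0.05 in a two-sided exact binomial test with Benjamini-Hochberg adjustment over 109960 regions. Where the deposited p is listed as 0 (6737 regions), only the smallest reads it allows are known, and the ratio is a lower bound. The window that stands for a region was taken to be the one with the lowest deposited p, which falls as m6A reads rise, so ratios and higher calls may run high and lower calls may run low. Relative to the depths, regions that touch introns only had a median of 0.59, and ratios can be read against that level. Centring the depths on it lowers every ratio by 0.59.

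Of the tested regions 43989 (40.0%) were higher in the m6A pull-down and 176 (0.160%) were lower. With depths centred on introns the counts were 34356 higher and 2765 lower. The median region had 5 m6A and 5 IgG reads and a log2 ratio of 1.18. Higher regions were wide and well covered, with a median of 660 bp, 16 m6A reads and 2 IgG reads, whereas the 65788 regions that were not called had a median width of 150 bp. Many were shallow: 35947 of those not called (54.6%) held under 10 reads in all. In 12118 higher regions no IgG read was found. Where a pull-down had 0 reads, 3 reads were put in its place for the ratio, which then is a lower bound where IgG had none and an upper bound where m6A had none.

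Higher regions lay at the ends of genes and outside them more often than inside. Exon regions made up 58716 of the list and 44.3% of those tested were higher (95% exact interval 43.9 to 44.7%). Regions over introns only were higher in 27.2% (26.8 to 27.7%) of 33063 tested, and regions over a promoter and an intron in 28.4%. Promoter regions that touched no exon or intron were higher in 68.1% (65.9 to 70.3%) of 1763, and regions outside any annotated gene in 53.7% (52.8 to 54.6%) of 12509. Promoter-only and outside regions had few IgG reads, with medians of 1 and 2, against 7 for exon regions and 5 for introns. The part of these low IgG reads in the shares was not tested.

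The place within a gene was read from which side its other exons lay on, within 10000 bp. Among exon regions of 1 gene, those with exons only upstream (the 3 prime end) were higher in 60.9% (60.1 to 61.7%) and those with exons only downstream (the 5 prime end) in 53.6% (52.5 to 54.8%). Internal exon regions were higher in 27.7% (27.2 to 28.2%), and their median ratio of 0.66 was close to that of introns. The medians at the 3 prime and 5 prime ends were 2.38 and 1.92. Exon regions with no other exon near, which include single-exon genes and first exons before a long intron, were higher in 62.0%.

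Internal regions differed among themselves by length. Those of 1 to 20 windows, short enough for an ordinary internal exon, were higher in 7.46% (7.04 to 7.90%) and had a median ratio of -0.04. From 21 to 60 windows the share was 37.4%, and over 60 windows it was 58.0% (56.9 to 59.1%), near that of the gene ends. Short regions also held fewer reads (a median of 9, against 29 in the longest class), and a longer region offers more windows to choose from. Among regions with 10 to 60 reads the order was the same, at 5.83%, 35.3% and 49.0%. In that band of reads the 3 prime end stood at 57.9%, the 5 prime end at 55.9% and internal regions at 27.9%, while intron-only regions stood at 36.2% and promoter-only regions to 85.9%. Regions of equal reads can still differ in the number of windows searched, whose part in these shares was not tested.

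**Figure D1:**
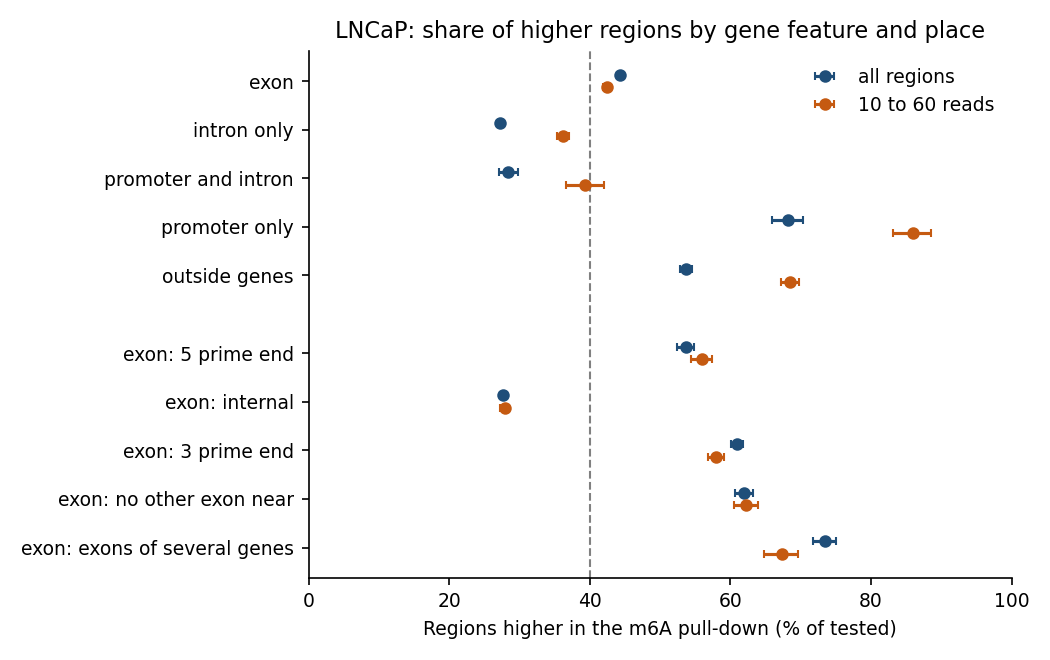
Share of tested LNCaP regions called higher in the m6A pull-down (x axis, percent) by gene feature and, for exon regions, by place in the gene; points are shares, bars 95% exact intervals, blue all regions and orange regions with 10 to 60 reads, and the dashed line is the share over all regions (40.0%). Internal exon regions (27.7%) and intron-only regions (27.2%) lie lowest over all regions, and promoter-only regions and exons of several genes (73.4%) highest.

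The position of the representative window shows where inside a region the deposited p was taken to be lowest. Since that p falls as m6A reads rise, this window need not hold the highest ratio to IgG. In higher 3 prime end regions of at least 50 windows without gaps (2855 regions), it lay a median of 0.48 of the way along the region in the direction of the gene, 542 bp from the upstream edge. With each region cut into 4 equal stretches, it fell in the first in 22.1%, in the second in 30.7% and in the last in 18.2%. In 918 higher 5 prime end regions the last stretch held the fewest windows (16.6%), and the others held 26.4 to 28.8%. In regions that were not called the windows lay more often at an edge: 47.1% of 306 such 5 prime regions had it in the first stretch. The table does not mark stop codons, so the distance to them was not measured.

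Single genes repeated this pattern. There were 3872 genes with a region of each kind, and 75.5% of them had a higher 3 prime end region, 56.5% a higher 5 prime end region and 54.6% a higher internal region. The 3 prime median exceeded the internal median in 2928 genes (75.6%), and the 5 prime median exceeded it in 2663 (68.8%). Median values over these genes were 2.18 at the 3 prime end, 1.76 at the 5 prime end and 0.76 inside. The most frequent pattern was a higher region in all 3 parts, in 1185 genes (30.6%). Higher regions at both ends with none inside were seen in 564 genes, at the 3 prime end only in 569, at the 5 prime end only in 263 and inside only in 151.

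**Figure D2:**
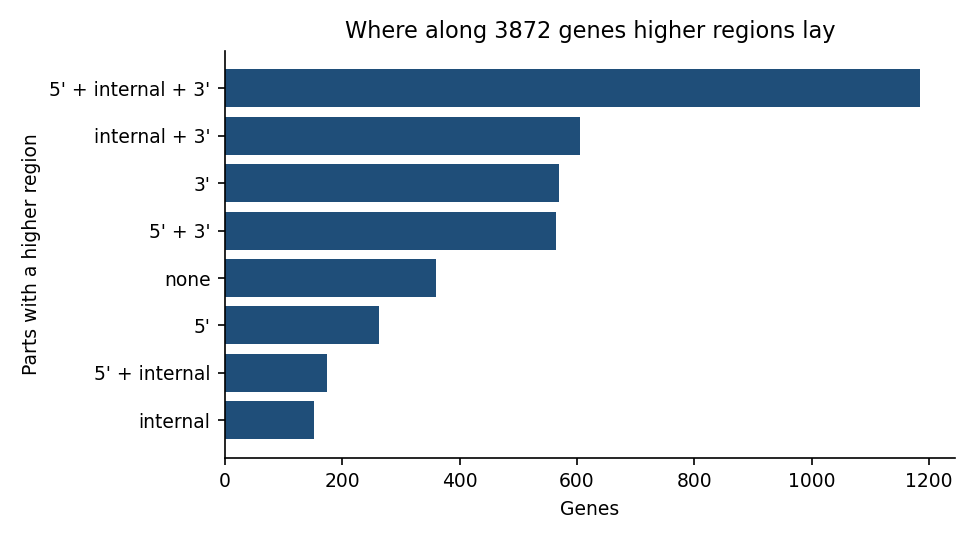
Number of LNCaP genes (x axis) by which of their parts held at least 1 higher exon region (y axis), among the 3872 genes with an exon region at the 5 prime end, inside and at the 3 prime end. All 3 parts is the most frequent pattern (1185 genes) and internal only the least frequent (151).

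At transcript starts, the base that opens the RefSeq transcript was compared, since m6Am needs an adenosine there. Of 3914 genes with a higher 5 prime or lone region marked as promoter and exon and a RefSeq sequence, 48.4% begin with A. The share was 41.4% of 1755 genes whose region there was not called and 44.3% of all 27305 promoters in the table. Shares beginning with G were 39.4%, 44.2% and 33.2% in the same order, and with T 0.869%, 1.14% and 7.59%, so all promoters differed in other bases too. With 10 to 60 reads the shares beginning with A were 48.5% of higher genes and 39.1% of those not called. The motif GGACT (this strand only) occurred in the first 50 transcribed bases of 4.68% of the higher genes, 4.27% of those not called and 4.87% of all promoters. These are descriptions of the annotated start, and the region need not cover that start, nor LNCaP cells use it. Among the genes whose starts are printed above, the promoter and exon region of FRK, the gene of a Src-related kinase, held 57 m6A reads against 2 (6.01, lower limit 4.09). That of METTL3 held 43 against 13 (2.90, 1.98 to 3.92). Genes whose start is C or G had higher regions as well: that of RARG had 16 reads against 3 (3.59, 1.79 to 6.01). Genes with higher regions among those printed thus opened with A, C or G.

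At the level of genes, 14084 had an exon region and 12502 of them (88.8%) had at least 1 that was higher. For 11855 (84.2%) the exon region with the most reads was higher, and the median of these best-covered regions was 3.23. A gene with many regions has more chances to hold a higher one, so the counts of gene groups are read against these shares. The groups were chosen with earlier results of these data in view.

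Among the genes that led the list by the lower limit of the ratio among regions whose reads were found without ambiguity, 11 are described here, none with an IgG read in the representative window. SPSB1, which encodes an adaptor of a ubiquitin ligase, had 61 m6A reads against 0 over its promoter and an exon on chromosome 1 (9415791 to 9416980), a ratio of at least 5.52 (lower limit 5.18). In the authors' deposited table its log2 fold is 31.40. Regions of ARHGAP20 (a GTPase activator), F10 (coagulation factor X), FRK, NCKAP5L and TEX19 held 60 reads against 0. CCER2, LOC202181 and TERT (the catalytic subunit of telomerase) held 59, and DNHD1 and EMILIN1 held 58. Their lower limits all lay between 5.11 and 5.18. These 11 regions sit at the upper edge of what the deposited p-values resolve, and regions with a p listed as 0 may lie above them. The 3 prime end held 4 of the 11 regions, internal exons 4 and the 5 prime end 2.

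Androgen-regulated and luminal genes were called about as often as genes at large. Of 41 listed targets 37 had an exon region and 34 of these (91.9%) had a higher one. The median over genes of the best-covered region was 1.84, against 3.23 over all genes. Such medians count bounds at their bound: 25 of the 37 values are bounds here and 5311 of the 14084 over all genes, so these and later group medians may lie too low and give no order by themselves. The best-covered regions of the androgen group had a median of 33 IgG reads, against 8 over all genes. The part of these IgG reads in the ratios was not tested.

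KLK3, which encodes prostate-specific antigen, could not be called. Both of its regions have a p listed as 0, and the smallest reads allowed, 78 against 137 and 80 against 166, give ratios of at least 0.37 and 0.13, which do not decide the call. KLK2, its neighbour and a related protease gene, was higher over its 5 prime part (at least 73 against 81, 1.03) and over its 3 prime end (at least 67 against 32, 2.24), both as lower bounds. With depths centred on introns the bounds of the best-covered regions of KLK2, FOLH1, TMPRSS2 and STEAP2 no longer decided the call.

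FOLH1, which encodes prostate-specific membrane antigen, held regions of both kinds. Of its 13 exon regions 6 were higher, 2 lower and 5 not called. The 3 prime end had at least 65 reads against 19 (2.95, lower limit 2.20), and neighbouring internal regions had 50 against 15 (2.92) and at least 67 against 22 (2.79). A lower region lay between the 3 prime end and these, with 16 reads against 71 (-0.97, -1.85 to -0.17) at 49175001 to 49176020 on chromosome 11. The other lay nearer the 5 prime end, with 9 against 65 (-1.67, -2.87 to -0.66) at 49221541 to 49222290. Intervals of higher regions lie above 0 and those of lower regions below it through the calls themselves. Whether the ratio differed along the gene was not tested. Its 5 prime region of promoter and exon was higher too (at least 76 against 107, 0.69), and a promoter region just before it had 24 reads against 1 (5.76).

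TMPRSS2, an androgen-driven protease gene, was higher in 4 of 10 exon regions. Its 5 prime region had 32 reads against 15 (2.27, 1.35 to 3.26), while the region at the 3 prime end had at least 74 against 90 (0.90). FKBP5, a co-chaperone of steroid receptors, was higher in a region of promoter and exon with no other exon near (15 reads against 9, 1.92) and at its 3 prime end (at least 69 against 46, 1.76). It was also higher in the next-to-last region (42 against 37, 1.36), and its other 9 exon regions were not called. In ABCC4, a drug and prostaglandin exporter, 2 of 23 exon regions were higher and 2 lower. STEAP2, a metalloreductase, was higher in all 7 of its exon regions, at 0.65 or more in the best-covered one.

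**Figure D3:**
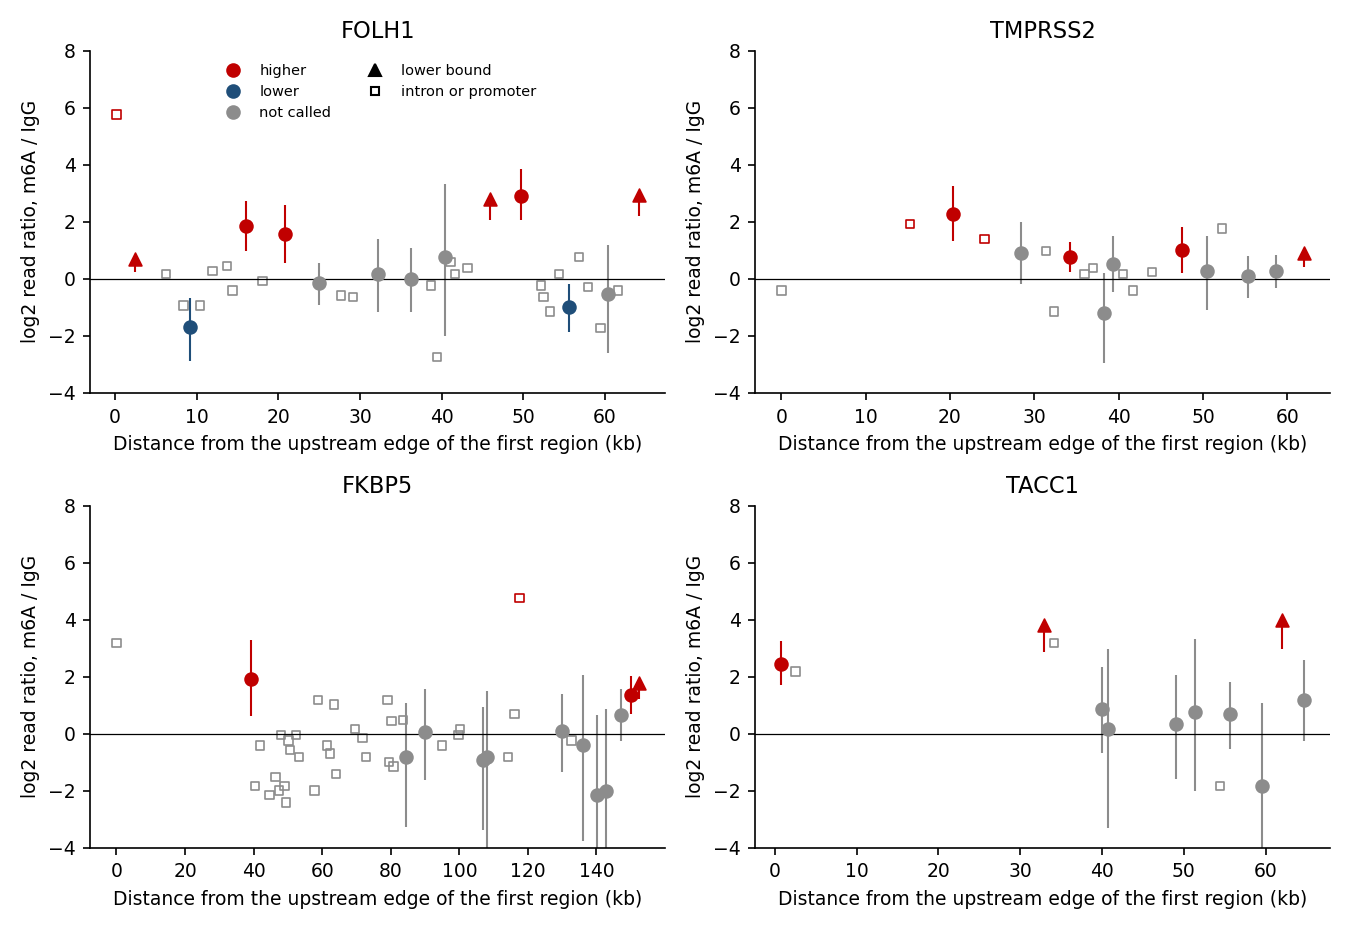
Log2 read ratio (y axis) of every LNCaP region of FOLH1, TMPRSS2, FKBP5 and TACC1 by distance along the gene (x axis, kb, from the upstream edge of its first region); filled symbols are exon regions with 95% exact intervals drawn within the axis, triangles are lower bounds with the lower limit only, open squares are intron or promoter regions, and red, blue and grey mark higher, lower and not called. All 4 genes hold a higher exon region at the 3 prime end, and FOLH1 also holds 2 lower regions.

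Of 18 transcription factors of the prostate lineage 14 had an exon region and each held a higher one, against 88.8% over all genes, with a median of 2.09 for the best-covered regions. FOXA1, a pioneer factor that opens chromatin, had at least 73 reads against 71 (1.22), HOXB13, a homeobox factor, at least 72 against 55 (1.57), GATA2 at least 70 against 53 (1.58), XBP1 at least 73 against 57 (1.54) and GRHL2 at least 70 against 34 (2.22). Of the nuclear receptor coregulators 26 of 27 had a higher region, against 88.8% over all genes. They had a median of 10 exon regions a gene, against 3 over all genes, and so more chances to hold a higher one. By the best-covered region 23 (85.2%) were higher, against 84.2% over all genes, with a median of 2.85. The corepressor gene NCOR1 was higher in 7 of 30 exon regions, and its best-covered region was internal, at 1.76 or more. PRMT1, an arginine methyltransferase, was the 1 not called higher, and KDM1A, a histone demethylase, held 1 higher and 1 lower region.

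RARG, the retinoic acid receptor gamma gene that the series title names, had few reads in LNCaP. Its 4 exon regions held 16 m6A reads against 3 IgG reads at the 5 prime end, then 3 against 5, 4 against 7 and 9 against 6 further along. Only the 5 prime region was higher (3.59, 1.79 to 6.01). The others, at 0.44, 0.37 and 1.76, were not called, and with so few reads only large ratios could be detected there. A region of promoter and intron next to the start, 7 reads against 0, was higher as well. TACC1, a coiled-coil gene reported to work with RARG, was higher over 2 regions of promoter and exon (51 against 21, 2.46, and at least 68 against 11, 3.81) and at its 3 prime end (at least 63 against 9, 3.99), with 7 exon regions in between and after not called.

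Of 28 listed retinoid genes, RARG and TACC1 included, 14 had an exon region and all 14 held a higher one, against 88.8% over all genes, with a median of 3.72 for best-covered regions and 11 IgG reads. RXRA, the shared partner receptor, had at least 64 reads against 14 (3.37), and ALDH1A3, which makes retinoic acid, at least 64 against 13 (3.48). Among reductases of retinal the lower bounds were 0.88 for RDH11 (at least 74 against 91), 3.42 for RDH13 and 3.81 for RDH14. With depths centred on introns the RDH11 bound no longer decided the call. The RDH14 region overlaps exons of a second gene, and reads of overlapping genes cannot be told apart because the strand of the reads is not used.

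**Figure D4:**
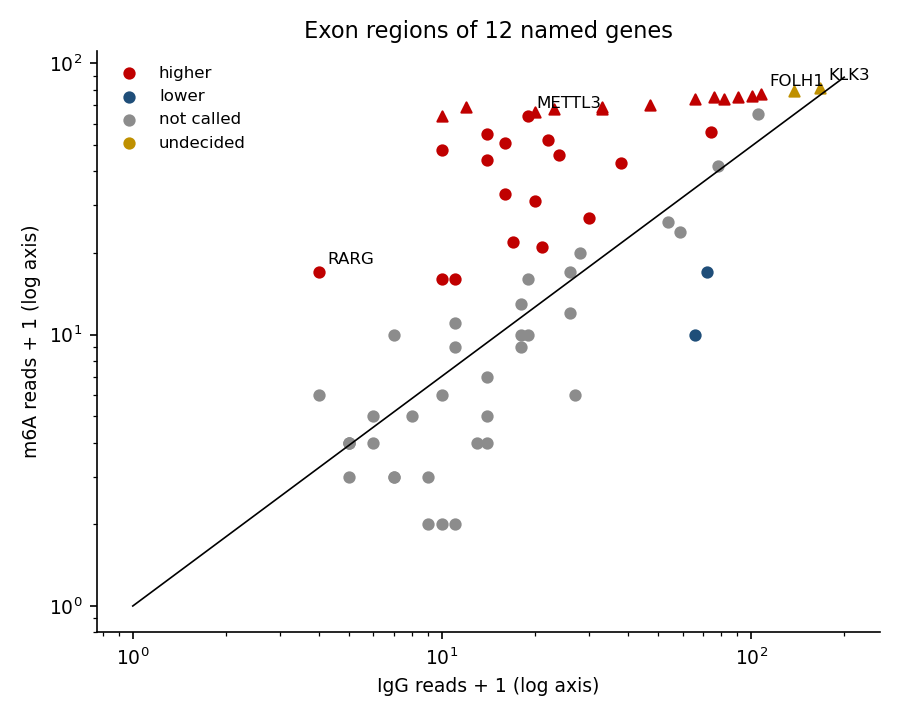
Rebuilt m6A reads (y axis) against IgG reads (x axis) of the exon regions of 12 genes chosen by name, both plus 1 on log axes; circles are rebuilt reads, triangles the smallest reads that a p listed as 0 allows, and the line marks equal rates at the rebuilt depths. The triangles line up between 63 and 80 m6A reads because that is where the deposited p reaches 0; RARG lies at few reads and KLK3 close to the line.

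Transcripts of the m6A writers were recovered with the antibody at about the share of other genes. Of 13 writer genes 11 had a higher exon region (84.6%), against 88.8% over all genes. METTL3, the catalytic subunit, was higher in all 3 of its regions: 43 reads against 13 at the 5 prime end, 63 against 18 (2.99, 2.21 to 3.83) inside, and 20 against 20 (1.18, 0.21 to 2.15) in a region it shares with another gene. WTAP, which anchors the complex, had at least 67 against 24 (2.66), ZC3H13 at least 70 against 21 (2.92), RBM15 at least 65 against 17 (3.11), RBM15B at least 70 against 53 (1.58) and METTL16 at least 69 against 11 (3.83). METTL5, which methylates 18S ribosomal RNA, and ZCCHC4, which methylates 28S ribosomal RNA, had no higher region.

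All 13 readers and erasers with an exon region, of 16 listed, held a higher one, against 88.8% over all genes. By the best-covered region 11 (84.6%) were higher, against 84.2% over all genes, and 9 held a higher region with depths centred on introns. YTHDF2, which leads m6A-marked RNA to decay, was higher in all 3 of its regions, at 45 reads against 23 (2.15), at least 68 against 32 (2.27) and 54 against 13 (3.23). YTHDF1 and YTHDF3 reached at least 3.27 and 3.40. FTO was higher in 2 of 6 regions, with 47 against 9 (3.56, 2.52 to 4.78) and 15 against 10 (1.76, 0.51 to 3.08). ALKBH5, the other eraser, had at least 70 against 52 (1.61), and ELAVL1 at least 70 against 47 (1.75). HNRNPA2B1, a nuclear RNA-binding protein, had 59 against 67 (0.47 to 1.52), and it was no longer called with depths centred on introns.

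Transcripts that are widely reported to carry m6A were higher in 18 of the 18 listed with a region, against 88.8% over all genes. With depths centred on introns 15 were higher. The median of their best-covered regions was 2.88, against 3.23 over all genes. MYC, the growth-driving transcription factor gene, was higher over both regions (at least 73 against 65, 1.35, and at least 74 against 75, 1.16). MALAT1, a nuclear non-coding RNA with mapped m6A sites, was higher in its second region (at least 75 against 100, 0.76) and not called in its first (64 against 104, 0.48, 0.01 to 0.94). ACTB, the actin gene, had at least 76 against 109 (0.66), and NEAT1, the paraspeckle RNA, at least 75 against 103 (0.72). SON, a splicing factor, held 5 higher regions and 1 lower one. CTNNB1, the beta-catenin gene, had 55 against 58 (0.54 to 1.66). With depths centred on introns the best-covered region of CTNNB1 was no longer called. The bounds of MYC, MALAT1, ACTB and NEAT1 no longer decided the call there.

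The PI3K, AKT and mTOR pathway, a growth-signalling route, was near the background. Of 35 genes with a region 32 (91.4%) had a higher one, against 88.8% over all genes, with a median of 3.39. AKT1 had 66 against 43 (1.80), AKT2 at least 68 against 25 (2.62), FOXO3 at least 69 against 30 (2.38), PIK3CB at least 68 against 22 (2.81), PIK3CD at least 69 against 29 (2.43), and EIF4EBP1 at least 69 against 41 (1.93). The adaptor genes IRS1 (at least 70 against 1, 7.31) and IRS2 (60 against 1, 7.09, lower limit 4.55) and the transcription factor gene FOXO1 (50 against 1, 6.82, lower limit 4.28) had high ratios, and were picked out after their values were seen. RHEB and INPP4B had 1 region each, not called, with 9 and 10 reads.

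Genes of cholesterol and fatty acid synthesis, which androgen drives in this line, had a higher region in 34 of 35 cases, against 88.8% over all genes. The median of their best-covered regions was 1.80, against 3.23 over all genes. FASN, fatty acid synthase, had at least 77 reads against 122 (0.51), SCD, a desaturase, at least 75 against 102 (0.73), ELOVL5 at least 75 against 94 (0.85), ACLY at least 73 against 63 (1.39) and SREBF1, a master regulator, 62 against 95 (0.56). With depths centred on introns the SREBF1 ratio and the FASN bound turned below 0, to -0.0307 and -0.079. Lower regions occurred in CYP51A1, a sterol demethylase (2 reads against 35, -2.95, -6.05 to -0.99), SREBF2 and ACACA. In steroid metabolism 12 of 28 genes had a region and 10 a higher one, led by STS, the steroid sulfatase gene on the X chromosome, at least 62 against 2 (6.13), and SRD5A3 at least 68 against 8 (4.27). UGT2B17, which inactivates androgens, had 23 against 14 (1.89), and HSD17B4 (13 against 37, -0.33, -1.37 to 0.61) and HSD17B10 (30 against 54, 0.33) were not called in their best-covered regions.

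Histone lysine methyltransferase and demethylase genes were higher in 43 of 43 cases, many in several regions, against 88.8% over all genes. They had a median of 10 exon regions a gene, against 3 over all genes, and so more chances to hold a higher one. The median of their best-covered regions was 3.42, against 3.23 over all genes. KDM6A had at least 71 reads against 53 (1.60), NSD2 at least 69 against 38 (2.04), SETD7 at least 68 against 37 (2.06), NSD3 at least 67 against 31 (2.29) and SETD5 at least 70 against 24 (2.72). KDM6B was at 1.18 or more in a region that covers exons of several genes. Long non-coding RNAs of prostate and nucleus had a higher region in 14 of 18 cases (77.8%), against 88.8% over all genes. NORAD had at least 72 against 51 (1.68), TUG1 at least 68 against 37 (2.06) and SNHG16 at least 67 against 27 (2.49), while PCA3, SNHG8, SNHG12 and SNHG15 were not called.

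Zinc finger genes were called more often than genes at large, and ribosomal protein and respiratory chain genes less often. Of 473 ZNF genes 465 (98.3%) had a higher exon region, against 88.8% over all genes, and the median of their best-covered regions was 4.59. ZNF217, ZNF664, ZNF460, ZNF207, ZNF24 and ZNF511, those with the most reads, ranged from 1.98 to 2.40 as lower bounds. All 37 clustered protocadherin genes were higher as well (median 2.88), but many share their regions: PCDHGA1, PCDHGA2, PCDHGA10, PCDHGA11 and PCDHGA12 rest on 1 stretch with 52 reads against 16, so they are not separate observations. The ZNF regions had a median of 5 IgG reads, and 309 of the 473 values are bounds.

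Of 83 cytosolic ribosomal protein genes 47 (56.6%) had a higher region, 27 with depths centred on introns, and in 26 (31.3%) the best-covered region was higher. The median of these regions was 0.43, with 7 of the 83 values bounds. RPL13A had at least 77 reads against 117 (0.57), RPL13 at least 70 against 53 (1.58), RPS2 61 against 73 (0.92), RPL8 70 against 77 (1.04), and RPL14 (57 against 89, 0.54) and RPS9 (43 against 110, -0.18) were not called. Genes of the respiratory chain were similar, with 37 of 76 (48.7%) holding a higher region and a median of 0.38. COX4I1 had 67 against 102 (0.57), ATP5F1D 70 against 66 (1.26) and NDUFB4 58 against 79 (0.73), and ATP5F1B (67 against 109, 0.48) was not called. Lower regions occurred in 8 of these 76 genes, among them NDUFA4 (8 against 61, -1.75, -3.03 to -0.68), ATP5MC2 (17 against 79, -1.04) and NDUFA9 (4 against 31, -1.78), against 0.916% of all genes. Their best-covered regions had medians of 39 IgG reads for ribosomal and 33 for respiratory genes, against 8 over all genes, and their part in the ratios was not tested. With depths centred on introns RPS2, RPL8 and NDUFB4 were no longer called, and COX4I1 and the RPL13A bound turned to -0.0214 and -0.0186.

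Mitochondrial ribosomal protein genes lay between these groups, with 61 of 77 higher (79.2%), against 88.8% over all genes, and a median of 1.94. MRPS27, with at least 71 reads against 44 (1.87), and MRPL17, with at least 70 against 52 (1.61), are examples. Housekeeping transcripts had a higher region in 16 of 20 cases and a median of 0.87, and in 10 cases with depths centred on introns. With that centring GAPDH was no longer called, and the EEF2 bound no longer decided the call. GAPDH had 65 against 97 (0.60), EEF2 at least 76 against 113 (0.61) and VCP at least 73 against 72 (1.20), whereas EEF1A1, PGK1, HPRT1 and GPI were not called. Replication-dependent histone genes, whose messages end in a stem-loop, were higher in 43 of 51 cases (84.3%), against 88.8% over all genes, with a median of 1.38. Examples are H4C5 (at least 76 against 112, 0.62) and H3C2 (at least 75 against 101, 0.75).

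Small nucleolar and Cajal body RNA genes were called least often, at 66 of 218 (30.3%), with a median of 0.27. Most are encoded inside other genes: SNORD32A, SNORD33, SNORD34 and SNORD35A share the RPL13A region, and the reads cannot be assigned to either. Lower regions were found in 8 of them, all named as H/ACA RNAs (SNORA), a class that guides pseudouridylation, against 0.916% of all genes. None of the 8 passed a threshold of 0.01. Examples are SNORA50A (1 read against 20, -3.14, -8.52 to -0.50), SNORA49 (4 against 33, -1.87) and SNORA12 (3 against 26, -1.94). SCARNA2, a Cajal body RNA, had a p listed as 0 and at least 80 reads against 162 (0.16), which left it undecided.

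**Figure D5:**
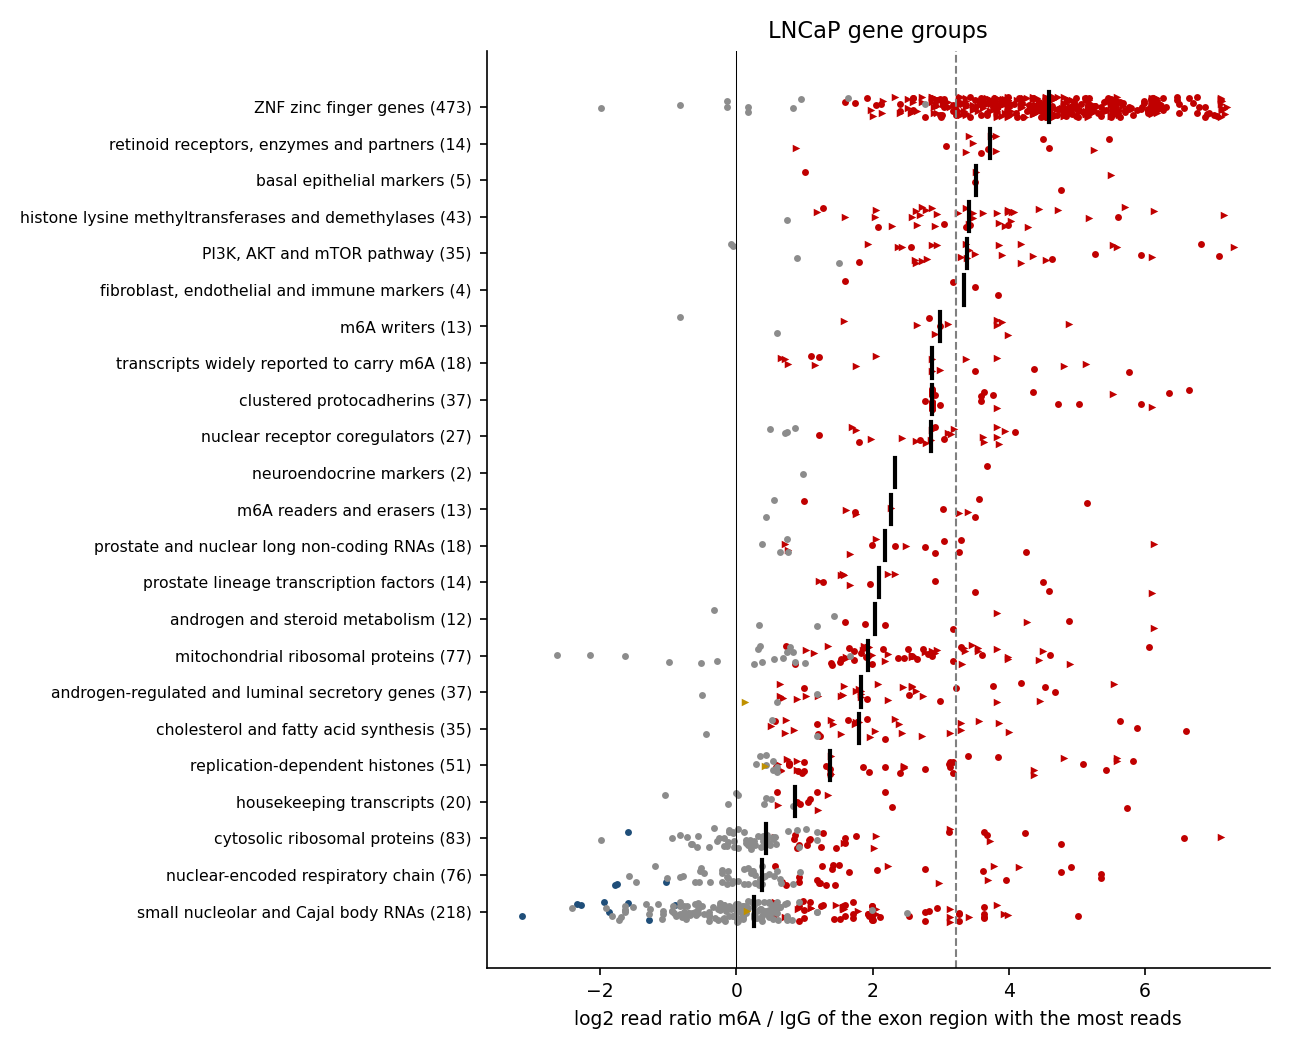
Log2 read ratio (x axis) of the best-covered exon region of each gene by gene group (rows, with the number of genes that had a region); points are rebuilt ratios, arrowheads lower bounds, red higher, blue lower, grey not called, ochre undecided, black bars group medians, and the dashed line the median over all genes (3.23). The medians, which count bounds at their bound, are 4.59 for zinc finger genes and 0.27 for small nucleolar RNAs.

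Lower regions were few at these depths and mostly touched exons. Of 176, 138 (78.4%) touched an exon, 89 of them as internal exon regions, and 24 lay in introns only. Among all regions 53.3% touched an exon, 26.4% were internal exon regions and 30.1% lay in introns only. Exon regions also held more reads than intron-only ones (medians of 16 and 8), whose part was not tested. The lower regions had a median width of 230 bp, 1 m6A read against 22 IgG reads and a ratio of -2.91. The gene with the lowest upper limit was PPA1, an inorganic pyrophosphatase, with 2 reads against 40 in an exon region at its 3 prime end on chromosome 10 (71962611 to 71962950; -3.14, -6.24 to -1.20, exact binomial adjusted p = 0.000295). EIF3E, a subunit of an initiation factor, had 2 against 34 (-2.91), SMARCA5, a chromatin remodeller, 1 against 26 (-3.52), AFG3L2, a mitochondrial protease, 1 against 25 (-3.47), and MYCBP2, a ubiquitin ligase, 2 against 32 (-2.82). Of the 129 genes with a lower exon region 94 also had a higher one, as in FOLH1, a smaller share than the 88.8% over all genes. At a threshold of 0.01 13 lower regions were left, with Bonferroni adjustment none, and with depths centred on introns there were 2765. At the depths used, 1027 regions had a ratio below 0 and an unadjusted exact binomial p under 0.05.

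The labelled cell type was checked against markers. Luminal genes KLK3, KLK2, TMPRSS2, FOLH1, HOXB13 and SLC45A3 all had exon regions, and so did KRT8 and KRT18, which share their best-covered region (32 reads against 57, 0.35). The basal genes KRT5, KRT14, KRT15 and TP63 have no region in the table. Of 17 basal genes 5 had one, ITGA6, ITGA3, DST, LAMA3 and LAMB3, adhesion genes that are not limited to basal cells. All 5 had a higher one, against 88.8% over all genes, LAMA3 in 2 of its 43 exon regions. Of 13 neuroendocrine markers NCAM1 (17 reads against 0, at least 3.68) and ENO2 (7 against 8, not called) had a region, and of 16 fibroblast, endothelial and immune markers 4 did, among them COL1A1 (16 against 4, 3.18), VWF (19 against 0, at least 3.84) and CD14 (4 against 0, at least 1.59). Apart from ENO2, these neuroendocrine, fibroblast, endothelial and immune markers were called higher, on few reads, as were 88.8% of all genes with an exon region. With depths centred on introns 2 of the 4 fibroblast, endothelial and immune markers stayed higher. Nothing about the level of the transcripts was measured.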

How the data were processed

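Pull-downs were made from 3 m6A and 3 IgG samples of LNCaP, per the labels, with a commercial enrichment kit. The authors deposited 1 table for the line: regions of neighbouring 20 bp windows at steps of 10 bp, each with other values per region (numbers of windows, windows up and down), a log2 fold, a p-value and an adjusted p-value, and gene marks. The aligner, the counter and the test behind it were not given in the sources used here. Per the submitters' processing notes the build is hg38; however, 12.5% of 61014 pairs of an exon region and its gene touched the gene's span in GRCh38 (RefSeq names matched 14768 of 15140 genes), so coordinates are printed as the table gives them and their build is not settled. RefSeq sequences carry GRCh38.p14 coordinates of their own.

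The deposited log2 fold was found to equal a constant plus the log2 of the m6A reads plus a prior, less 2 times the log2 of the IgG reads plus a prior. Constants were fitted on 2758 regions of 1 window (largest residual 0.00578). Pairs had to lie within 0.012 of the fold, with a likelihood ratio p in a fitted band around the deposited p. Where the deposited p was large, no band was used and only pairs with 0 m6A reads were allowed. This gave 1 pair for 99.1% of 103523 regions with p above 0, more than 1 for 657 (the nearest was taken) and none for 300 (left undecided). Depths come from the priors, on the assumption that these scale with depth, and were not checked against sequenced reads. Library totals are not used here, and precision is set by the reads of each window. Reads were compared with scipy 1.17.1 exact binomial tests, adjusted by Benjamini-Hochberg. The steps were also run on data simulated with the same formula, constants and depths. That run cannot test these, nor the rule for 0 m6A reads. Regions and genes share libraries, and no p-value measures the spread between samples. Columns of per-sample values left unused numbered 0.

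Members, gene groups and the rules for naming genes were chosen with earlier results of these data known. Named were the 12 genes with the highest lower limit among higher exon regions with unique reads (ties in alphabetical order), the 8 with the most higher exon regions, the 8 with the lowest upper limit among lower ones, up to 6 per group by reads plus those with a lower region, and 15 fixed genes. Some of these are not reported here. Others are said to be picked afterwards, or illustrate a count.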

Additional observations from a re-analysis of the deposited data

How the results depend on the processing

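No paired analysis was possible because the table holds no value per sample, and for the same reason no replicate could be left out. The count of 43989 higher regions fell to 18760 with Bonferroni adjustment and stayed within 1.5 times at a threshold of 0.01, with depths centred on intron-only regions, with unique reads only and with at least 10 reads. The 176 lower regions became 13 at 0.01, 0 with Bonferroni adjustment and 2765 with depths centred on introns. In percent higher, with 10 to 60 reads exons had 42.5, introns 36.2, 5 prime ends 55.9 and 3 prime ends 57.9, and with unique reads only exons had 37.3, 5 prime ends 50.1, internal regions 24.4 and 3 prime ends 50.0. With depths centred on introns, higher genes numbered 2 among fibroblast, endothelial and immune markers, 10 among housekeeping and 27 among cytosolic ribosomal protein genes; by the best-covered region the last had 26. That centring turned the ratios of the best-covered regions of SREBF1 (-0.0307), COX4I1 (-0.0214) and H4C8 (-0.0133) below 0. The lower bounds of FASN (-0.079) and of RPL13A with its 4 small nucleolar RNAs SNORD32A, SNORD33, SNORD34 and SNORD35A (-0.0186) also turned below 0. A lower bound below 0 leaves the sign of the ratio unknown. Of the best-covered regions of the named genes, 63 were no longer called with Bonferroni adjustment, 31 at 0.01 and 35 with centred depths. These counts include bounds that no longer decided the call. The 35 leave out the 9 whose ratio or bound turned below 0. RPS9 became called as lower with centred depths. Other counts of genes and groups stayed within 1.5 times under the alternatives run. The alternatives for single genes and for the gene count with centred depths were chosen after seeing the data. Why centring and thresholds moved these values was not tested beyond their construction. A region of under 10 reads can show only a large ratio.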

Other observations

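A few genes held many higher exon regions. RNF213, which encodes a giant ubiquitin ligase, and TTN, which encodes the muscle protein titin, had 21 each, of 37 and 30 exon regions, and TNRC18 had 19 of 22. PCNT, a centrosome scaffold, CENPE, a mitotic kinesin, and RGS3, a G protein regulator, had 15 each, of 26, 22 and 19, and KCNQ1OT1, an imprinted antisense RNA, had 14 of 41. The best-covered TTN region had at least 65 reads against 4 (5.20) and overlaps exons of a second gene.

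Among regions over a promoter alone, the highest lower limits were those before ZMYM5 (58 m6A reads against 0, at least 5.45), ZNF184 (56 against 0, at least 5.40) and DOC2GP (52 against 0, at least 5.29). Outside annotated genes, a region between KDM8 and NSMCE1 on chromosome 16 (27233341 to 27236130) had 60 reads against 0, a log2 ratio of at least 5.50 (lower limit 5.16).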
